A study of Mus musculus with 4 samples.

Results

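The cells described here are keratin-expressing tumour cells that were low in both histone mRNA and mitotic mRNA, and they are called G1-like tumour cells below. They were taken from 10x Genomics 3′ single-cell libraries of tumours from Swiss albino mice injected intraperitoneally with DLA (Dalton's Lymphoma Ascites) cells. There were 2 samples from mice labelled untreated (Control) and 2 from mice given SP11, a small-molecule HSP90 inhibitor, orally at 30 mg/kg for 17 days. All 4 samples carried the same tumour line, each is 1 library, and how many animals gave each sample is not stated in the sources used here. Barcodes had to show 200 or more genes and no more than 10% of their UMIs (unique molecular identifiers, which count captured mRNA molecules) from mitochondrial genes. The tumour gate then asked for at least 5 UMIs of Krt8 and Krt18 together and fewer than 10 UMIs of the macrophage genes Lyz2, Tyrobp, Fcer1g and Ctss together. Within each library, a cell was G1-like when its summed share of 6 histone genes and its summed share of 10 mitotic genes were both below that library's own median. The rule gave 730 G1-like cells of 3121 cells in the tumour gate, out of 4404 barcodes past the quality limits and 5332 barcodes in all. The other 2391 tumour cells comprised 830 that were high in histone mRNA alone (histone-high), 830 that were high in mitotic mRNA alone (mitotic-high) and 731 that were high in both.

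A proliferating cell grows in G1 and commits there to a new round of division when cyclin D and cyclin E kinases release E2F transcription factors from RB proteins. E2F then switches on the genes for DNA replication and nucleotide synthesis, replication-dependent histone mRNA accumulates in S phase, and mitotic genes follow in G2 and M. A cell low in both histone and mitotic mRNA is therefore most often placed in G1, early S or a resting state, but mRNA alone does not measure DNA content. Growth factors such as EGFR ligands act on cells in G1.

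The number of G1-like cells was 198 in Control 1, 116 in Control 2, 272 in SP11 1 and 144 in SP11 2, which was 23.6%, 22.1%, 22.9% and 25.4% of the tumour gate. These shares follow from cutting each library at its own medians and are not a result. The histone cut stood at 11.4 to 12.8 UMIs per 10000 in Control 1, Control 2 and SP11 1 and at 4.68 in SP11 2, while the mitotic cut lay between 6.85 and 8.17 in all 4. Just inside and just outside the histone cut the scores were 11.4 and 11.5 in Control 1, 11.2 and 12.9 in Control 2, 11.2 and 11.3 in SP11 1, and 4.66 and 4.68 in SP11 2. For the mitotic cut the same pairs were 6.78 and 6.88, 8.08 and 8.18, 6.97 and 7.03, and 6.79 and 6.95. Between 4.04% and 10.7% of the G1-like cells lay within 10% of a cut, so the class is a range on a continuous score.

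**Figure D1:**
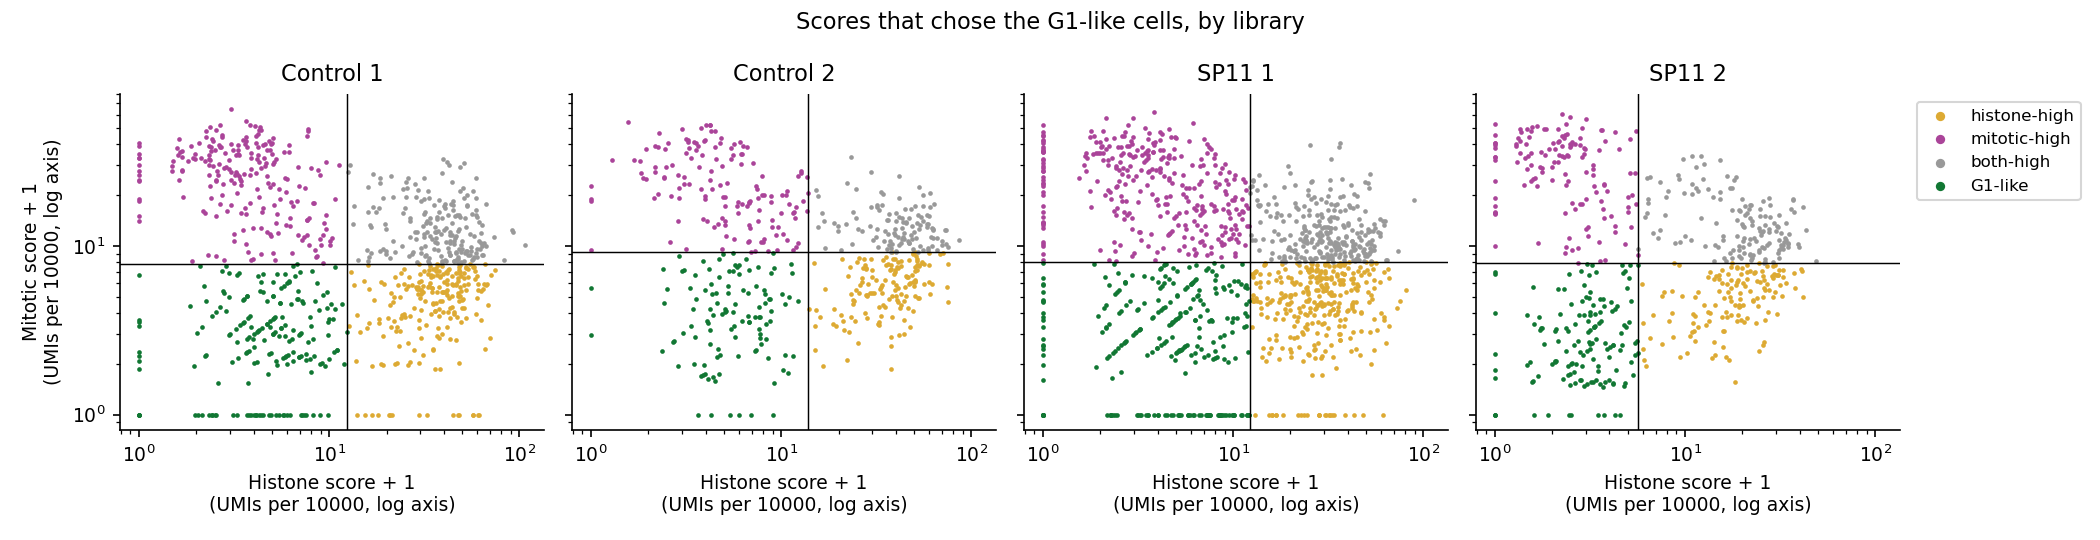
Histone score (x axis) and mitotic score (y axis) of each tumour-gate cell, in UMIs per 10000, with 1 added, on log axes, 1 panel per library, and lines at the library's own medians. The G1-like cells fill the lower left corner of each panel, and the histone median is lower in SP11 2 (4.68) than in the other libraries.

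The G1-like cells carried a median of 9122, 14155, 7252 and 17152 UMIs per cell in Control 1, Control 2, SP11 1 and SP11 2, which was 0.766 to 0.816 times the median of the other tumour cells of the same library. Their median number of detected genes was 2489, 3299, 2210 and 3892. Median UMIs overlapped between Control and SP11 cells (exact permutation test over samples, two-sided, p = 1.0, with 0.333 the smallest p that 2 against 2 samples allows). The summed UMIs behind the levels below were 1851882, 1605057, 2072077 and 2504718. A doublet caller marked 2 to 6 G1-like cells per library, and these were kept.

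Libraries shared barcodes and differed in UMIs of other cell types. Of all barcodes, 896 occurred in more than 1 library, and 43.9%, 37.9%, 30.2% and 31.3% of the G1-like cells of Control 1, Control 2, SP11 1 and SP11 2 carried such a barcode. A UMI of a B-cell gene (Igkc, Cd79a, Cd79b or Ighm) was found in 0 and 1 G1-like cells of Control 1 and Control 2 and in 54 and 52 of SP11 1 and SP11 2. Over the other tumour cells these shares were 1.56%, 2.44%, 27.5% and 43.0%, against 0%, 0.862%, 19.9% and 36.1% of the G1-like cells.

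The G1-like cells held keratin mRNA at high levels and Cd4, Cd3e and Trac mRNA at or near 0, although the labels give the cell type as lymphoma. Levels are given in CPM, a gene's share, per 1000000, of the UMIs summed over the cells of a class in a sample. Krt18, an epithelial intermediate filament keratin, stood at 3430, 2020, 2940 and 2480 CPM in the G1-like cells of Control 1, Control 2, SP11 1 and SP11 2. Keratins were also used by the gate. Cd4 had 0 UMIs in 730 G1-like cells, which allows a share of up to 0.411% of cells with a UMI. Cd3e, a T-cell receptor subunit, reached at most 1.45 CPM, Trac, the constant part of the T-cell receptor alpha chain, at most 0.965 CPM, while Lat, a signalling adaptor, was at 20 to 28 CPM. All 30 genes of the T and NK list summed to 35.6, 29.9, 81.6 and 39.1 CPM. The word tumour cell is used here for the keratin-positive cells of a tumour labelled lymphoma.

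The promoters of 3 cycle genes described below are shown first, because E2F and CHR sequences are the textbook elements of G1/S and G2/M genes. They were picked for holding such letters, which 6 of 16 genes looked at singly did, and Ung, Fgfbp1, Nusap1, Kif23, Rrm2 and Cdkn2d were among those without. Each is the 150 bases before the gene start in RefSeq on GRCm38.p6, written 5′ to 3′ on the strand of the gene, with capitals on the E2F or CHR letters that a search found. Cdc6 loads the replicative helicase onto origins, Kif11 is a spindle motor, and Ckap2l is a spindle protein. Cdc6 lies at chr11:98908001-98908150 on the plus strand, Kif11 at chr19:37376232-37376381 on the plus strand and Ckap2l at chr2:129297213-129297362 on the minus strand.
Cdc6: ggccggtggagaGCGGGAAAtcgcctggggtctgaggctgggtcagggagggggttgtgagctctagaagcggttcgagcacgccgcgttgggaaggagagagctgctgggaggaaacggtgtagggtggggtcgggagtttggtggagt
Kif11: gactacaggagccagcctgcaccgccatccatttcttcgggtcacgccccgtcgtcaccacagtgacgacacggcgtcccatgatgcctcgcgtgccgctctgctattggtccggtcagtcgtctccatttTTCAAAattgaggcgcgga
Ckap2l: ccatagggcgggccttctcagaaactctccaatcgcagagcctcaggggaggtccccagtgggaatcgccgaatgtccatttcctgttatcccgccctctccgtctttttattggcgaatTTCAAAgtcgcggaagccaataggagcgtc

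The E2F letters TTTCCCGC, read on either strand within 250 bases before the start, were present in 6 of 35 matched G1/S genes (17.1%) and in 1.03% of 27025 genes. A second E2F form, TTTGGCGC, was also found in 17.1% of the G1/S genes, against 0.485% of all. The CHR letters TTTGAA occurred in 15 of 41 matched G2/M genes outside the rule (36.6%) and in 18.3% of all genes. The 15 leading genes that were higher in G1-like cells, of which 11 were matched, held TTTCCCGC in 1 case (9.09%), TTTGGCGC in 0 and TTTGAA in 2 (18.2%). These matches are a description of letters and not of binding.

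The G1-like cells were compared with the other tumour cells of the same library as levels and ratios, with no test, because the rule used the same cells' cycle genes. A gene is called higher or lower here when the ratio had the same sign in all 4 libraries, and log2 ratios were taken after 1 CPM was added. Of 8632 genes, 1294 (15%) were higher and 21.7% were lower in all 4 libraries, and 0.301% were higher and 2.65% lower by at least 0.5 on the log2 scale in all 4. That is 26 genes upward and 229 downward.

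Mitotic genes that the rule did not name were low in the G1-like cells. All 40 tested G2/M genes outside the rule were lower in 4 of 4 libraries, with medians of the log2 ratio of -1.89, -1.67, -1.53 and -1.90 in Control 1, Control 2, SP11 1 and SP11 2, against medians over all genes of -0.0146, -0.0454, -0.0384 and -0.00318. Nusap1, a microtubule-bundling protein of the spindle, was at 2.16, 8.72, 3.86 and 0.798 CPM in the G1-like cells and at 57.3, 52.1, 51.0 and 48.3 in the other tumour cells. All 4 G1-like levels lay far below the others. Kif11, whose promoter is printed above, was at 3.24, 4.36, 8.20 and 4.39 CPM against 36.9, 42.0, 39.3 and 48.9. Ckap2l stood at 10.3, 8.10, 14 and 7.98 CPM against 61.4, 57.0, 55.7 and 56.1. The same pattern held for Prc1, which bundles the central spindle, at 57.2, 71.6, 66.1 and 53.9 against 335, 365, 309 and 354. Other leading lower genes included Sgo2a, Incenp, Kif20b, Kif23, Aurkb, Pbk, Ndc80, Spc25, Kif4 and Cdca2, which encode chromosome-passenger, kinetochore and spindle proteins and a mitotic kinase. All 11 tested histone genes outside the rule were lower too, and Hist1h4d was at 205, 203, 153 and 91.4 CPM against 515, 473, 339 and 179.

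**Figure D2:**
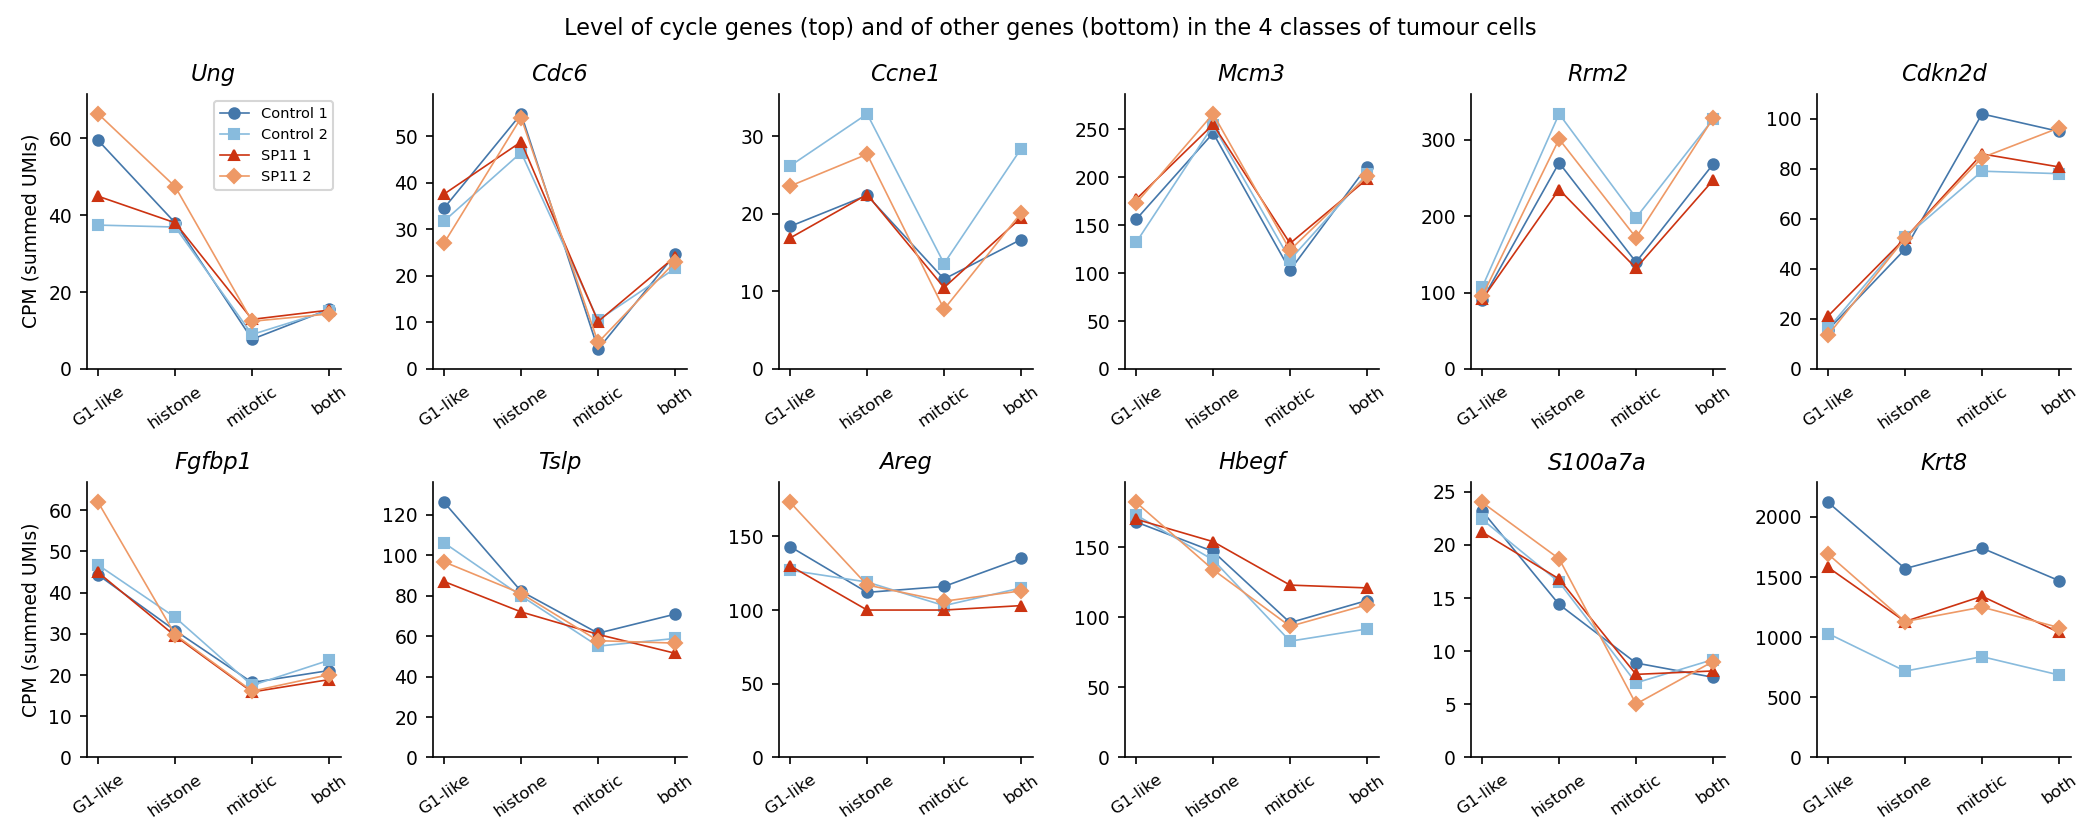
Level in CPM of selected genes in the G1-like, histone-high, mitotic-high and both-high tumour cells of each library. The top row holds cycle genes and the bottom row other genes, with 1 line per library. Ung, Cdc6, Ccne1 and Mcm3 are lowest in mitotic-high cells and Rrm2 and Cdkn2d are lowest in G1-like cells of all 4 libraries.

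G1/S genes, which load and fire replication origins, lay between the histone-high and the mitotic-high levels in many cases. Of 45 tested, 2 were higher (Ung and Cdc6) and 26 lower than in all other tumour cells. Against the histone-high cells 41 were lower (17.7% of all genes were), and against the mitotic-high cells 22 were higher and 3 lower (13.5% and 20.8% of all genes). Ung, the uracil-DNA glycosylase that removes uracil from new DNA, was at 59.4, 37.4, 44.9 and 66.3 CPM in G1-like cells. It stood at 38.0, 36.9, 38.0 and 47.4 in histone-high cells and at 7.73, 8.97, 12.9 and 12.4 in mitotic-high cells. G1-like cells held 3.47 to 7.68 times the mitotic-high level, and in Control 2 they differed little from the histone-high cells. Cdc6 was at 34.6, 31.8, 37.6 and 27.1 CPM, against 28.1, 26.9, 27.4 and 27.1 in all other tumour cells, so the classes barely differed in SP11 2. Its level was 3.02 to 8.13 times the mitotic-high level and below the histone-high levels of 54.8, 46.5, 48.8 and 54.0. Ccne1, cyclin E, was at 18.4, 26.2, 16.9 and 23.6 CPM, again between the mitotic-high (11.6, 13.6, 10.5 and 7.71) and histone-high (22.4, 32.9, 22.5 and 27.7) levels.

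Genes of DNA replication and nucleotide supply were lower than in histone-high cells. Mcm3, a helicase subunit, was at 156, 132, 177 and 173 CPM in G1-like cells and at 246, 254, 255 and 266 in histone-high cells. Nucleotide synthesis had 0 higher and 8 lower of 11 tested genes. Rrm2, the regulated subunit of ribonucleotide reductase, was at 90.2, 107, 91.2 and 95.4 CPM, below both histone-high cells (270, 334, 235 and 301) and mitotic-high cells (140, 198, 132 and 172). The thymidylate synthase gene Tyms was at 51.3, 59.2, 51.6 and 39.5 CPM against 84.1, 92.5, 89.7 and 88.9 in the other tumour cells.

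CDK inhibitors, which keep cyclin-dependent kinases inactive, were more often lower than higher. Of 16 tested cyclin, CDK and inhibitor genes, 3 were higher (Cdk6, Ccnd3 and Cdkn2a) and 8 lower (Cdkn2d, Rbl1, Cdkn2c, Cdkn1b, Cdkn1a, Rb1, Cdk2 and Cdk4). Cdkn2d, the INK4 inhibitor p19, was at 15.7, 16.2, 21.2 and 13.6 CPM, 3.45 to 5.81 times below the other tumour cells at 81.3, 69.4, 73.2 and 78.9. Cdkn1a, the p53 target p21, was at 52.4, 59.8, 66.6 and 70.3 CPM against 81.9, 86.0, 92.6 and 91.6, and Cdkn1b, p27, was at 18.9, 21.2, 18.3 and 15.2 against 27.9, 28, 29.4 and 28.5. Ccnd1, cyclin D1, was level between the classes, at 342, 321, 333 and 414 CPM against 340, 332, 352 and 407. Of 16 tested quiescence and antiproliferative genes 5 were higher (Mxd4, Klf2, Cited2, Gas2l1 and Ndrg1) and 3 lower (Btg1, Klf9 and Mxi1).

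The 15 leading higher genes were S100a7a, Fgfbp1, Ung, the non-coding Snhg20, Tspan9, Snhg3, Myh14, Tslp, 2010320M18Rik, Plscr1, Angptl4, Gm15283, Sfn, Myc and Nlrp4e. S100a7a, an epithelial S100 protein, was at 23.2, 22.4, 21.2 and 24 CPM in G1-like cells and at 10.3, 11.1, 10.9 and 10.7 in the other tumour cells, a log2 ratio of 1.01 ± 0.10 (SD, n = 4 libraries). Fgfbp1, which releases fibroblast growth factors from the matrix, was at 44.3, 46.7, 44.9 and 61.9 against 23.4, 25.3, 21.4 and 21.8. Tslp, an epithelial cytokine, was at 126, 106, 86.9 and 96.6 against 71.5, 65.0, 61.5 and 64.5. Among the EGFR ligands, 3 of 5 tested were higher (Areg, Hbegf and Nrg2). Hbegf was at 168, 173, 170 and 182 CPM against 119, 106, 133 and 112, and Areg at 143, 127, 130 and 173 against 121, 112, 101 and 112. All 6 of the genes given as markers of these cells, Ung, Krt8, Fgfbp1, Areg, Tslp and Hbegf, were higher in 4 of 4 libraries. These markers came with the choice of the cells, so the counts are a description.

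Of 20 tested genes of secreted factors, 8 were higher (Fgfbp1, Il23a, Lif, Inhba, Plau, Pdgfb, Angptl4 and Tslp) and 1 lower (Tgfb1). Plau, urokinase, was at 11.9, 28.7, 18.8 and 12.0 CPM against 5.04, 10.4, 8.06 and 6.88. Lif, a cytokine of the IL-6 family, was at 4.32, 6.23, 5.31 and 5.99 against 1.55, 1.91, 3.14 and 3.44. Lif rests on 8 to 15 UMIs per library. Angptl4, a lipase inhibitor, was at 27.0, 23.7, 21.7 and 23.2 against 11.9, 10.3, 12.3 and 16.5. Myc, a growth-promoting transcription factor, was at 36.7, 44.2, 34.3 and 44.7 CPM against 25.9, 31.2, 24.9 and 27.6.

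**Figure D3:**
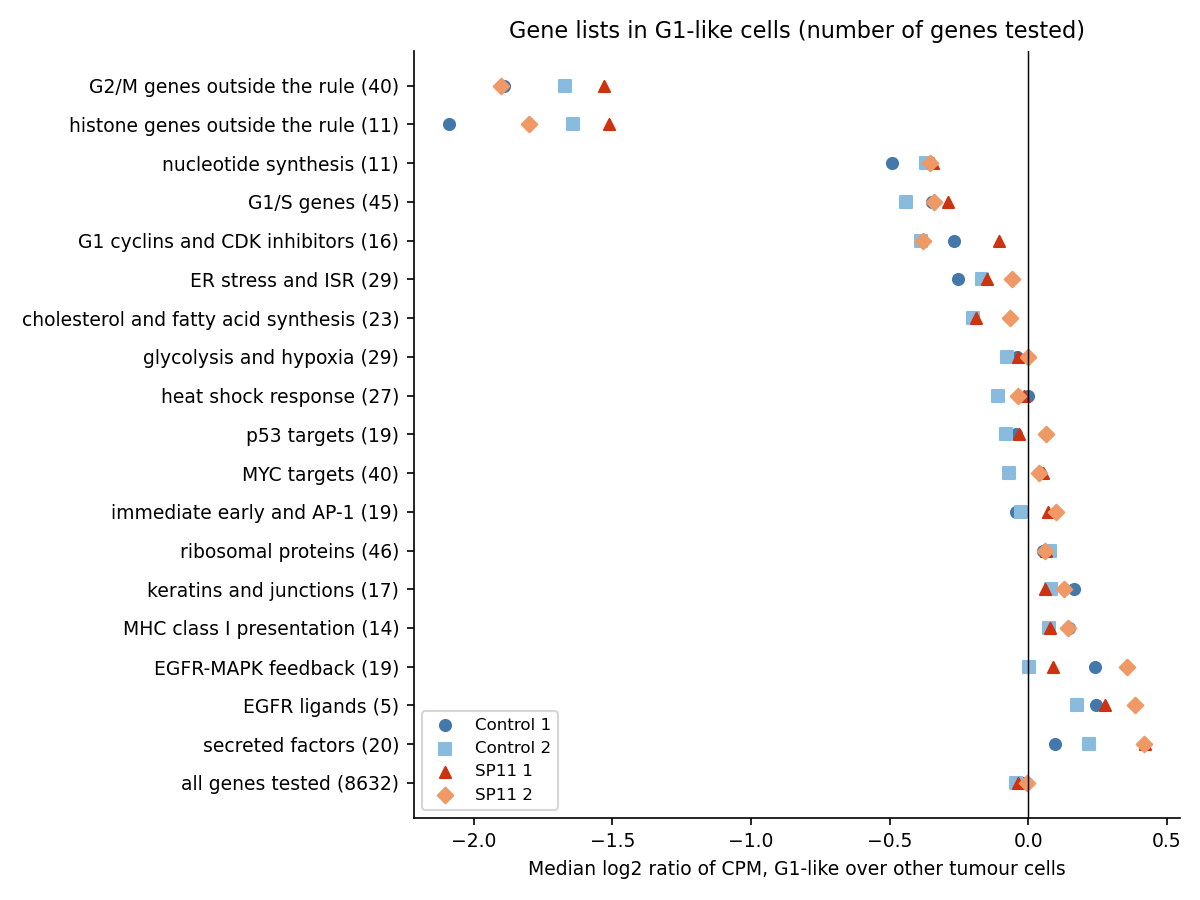
Median log2 ratio of CPM in G1-like over other tumour cells for each gene list (x axis), 1 point per library, with the number of genes tested beside each list name. The G2/M medians lie between -1.90 and -1.53 and the histone medians outside the rule are also far below 0, while EGFR ligands and secreted factors lie above 0 in all 4 libraries.

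Of 17 tested keratin and junction genes, 8 were higher (Sfn, Lsr, Pkp3, Krt19, Krt80, Krt7, Krt8 and Krt18) and 2 lower (F11r and Ovol2). Krt8 was at 2120, 1030, 1580 and 1690 CPM against 1590, 747, 1170 and 1150, and the gate itself asked for Krt8 and Krt18. Ribosomal protein genes were higher in 42 of 46 and lower in 0, by small amounts, with a median log2 ratio of 0.05 in Control 1 and 0.08 in Control 2. CPM are shares of a total, and the cycle genes that are low by the rule are part of it. In Control 1 the ribosomal genes summed to 209000 CPM against 200400 in the other tumour cells. The rule's histone genes summed to 410 CPM against 2590 there, and its mitotic genes to 225 against 1507. The part of these sums in the ribosomal ratios was not tested. Heat shock genes gave 6 higher and 9 lower of 27, with Hspb1, a small chaperone, at 485, 571, 655 and 485 CPM against 331, 501, 505 and 409 and Hsp90aa1, the inducible form of the drug's target family, at 1920, 2100, 2190 and 2560 against 2050, 2420, 2360 and 2760. ER stress and integrated stress response genes gave 2 higher and 13 lower of 29, with the regulator Atf4 at 104, 104, 109 and 131 CPM against 153, 158, 152 and 167.

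Detection per cell was also compared. Cells were thinned to 5000 UMIs and shallower cells were left out. This kept 187, 112, 237 and 140 G1-like cells in Control 1, Control 2, SP11 1 and SP11 2. Ung was then detected in 24.6%, 18.8%, 21.5% and 27.9% of G1-like cells and in 9.90%, 12.3%, 10.9% and 11.2% of the other tumour cells. In mitotic-high cells the shares were 2.88%, 8.89%, 6.14% and 5.84%. Cdc6 was detected in 16.6%, 9.82%, 16.5% and 11.4% against 9.90%, 12.1%, 11.8% and 11.2%, so it was not higher in Control 2, and before thinning it was found in a lower share of G1-like cells in every library but Control 1. Cdkn2d was detected in 8.56%, 8.04%, 8.44% and 5.71% against 30.0%, 25.7%, 27.7% and 27.3%. Before thinning, Ung was found in 41.4%, 31.9%, 26.5% and 61.1% of G1-like cells and in 19.8%, 27.6%, 18.5% and 34.8% of the others.

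SP11 and Control were compared within the G1-like cells by summing UMIs per sample and fitting edgeR's quasi-likelihood test over 8632 genes. The question was whether these cells carried a different transcriptome under the drug. At an adjusted p under 0.05, 33 genes were higher (0.382%) and 14 lower (0.162%) in SP11, and 821 had an unadjusted p under 0.05. The CPM of the 2 Control and the 2 SP11 libraries did not overlap in 39.4% of all genes tested, in either direction, so a lack of overlap is common here. The median log2 fold change over all genes was -0.01. The sum over cells alone cannot tell more cells that carry an mRNA from more mRNA per cell, so shares of cells are given below for Igkc and Hbb-bs. The study's methods speak of independent sets of samples but the labels name no animals, so the p-values measure the spread between these samples.

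None of the 6 marker genes passed the test by edgeR or DESeq2, and 1 had an unadjusted edgeR p under 0.05. Ung changed by 0.07 ± 0.21 (log2 fold change ± SE, edgeR adjusted p = 0.95) and Fgfbp1 by 0.12 ± 0.19 (edgeR adjusted p = 0.9). Tslp, at 126 and 106 CPM in Control and 86.9 and 96.6 in SP11, had a log2 fold change of -0.46 ± 0.16 (edgeR adjusted p = 0.305). Krt8, Areg and Hbegf had log2 fold changes of -0.07, 0.04 and -0.07. None of the 45 G1/S, 27 heat shock, 40 MYC target or 19 p53 target genes was called by edgeR or DESeq2, with list medians of 0.07, 0.02, -0.01 and 0.00. At an unadjusted edgeR p under 0.05 they held 4, 1, 1 and 1 genes, against 821 of all 8632 genes tested. Hsp90aa1 had a log2 fold change of 0.13 ± 0.16 (edgeR adjusted p = 0.863). Of the 9 stemness genes followed by the study, 7 were tested and 0 were called by edgeR, DESeq2 or at an unadjusted edgeR p under 0.05, and that list was chosen by the study on these samples.

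**Figure D4:**
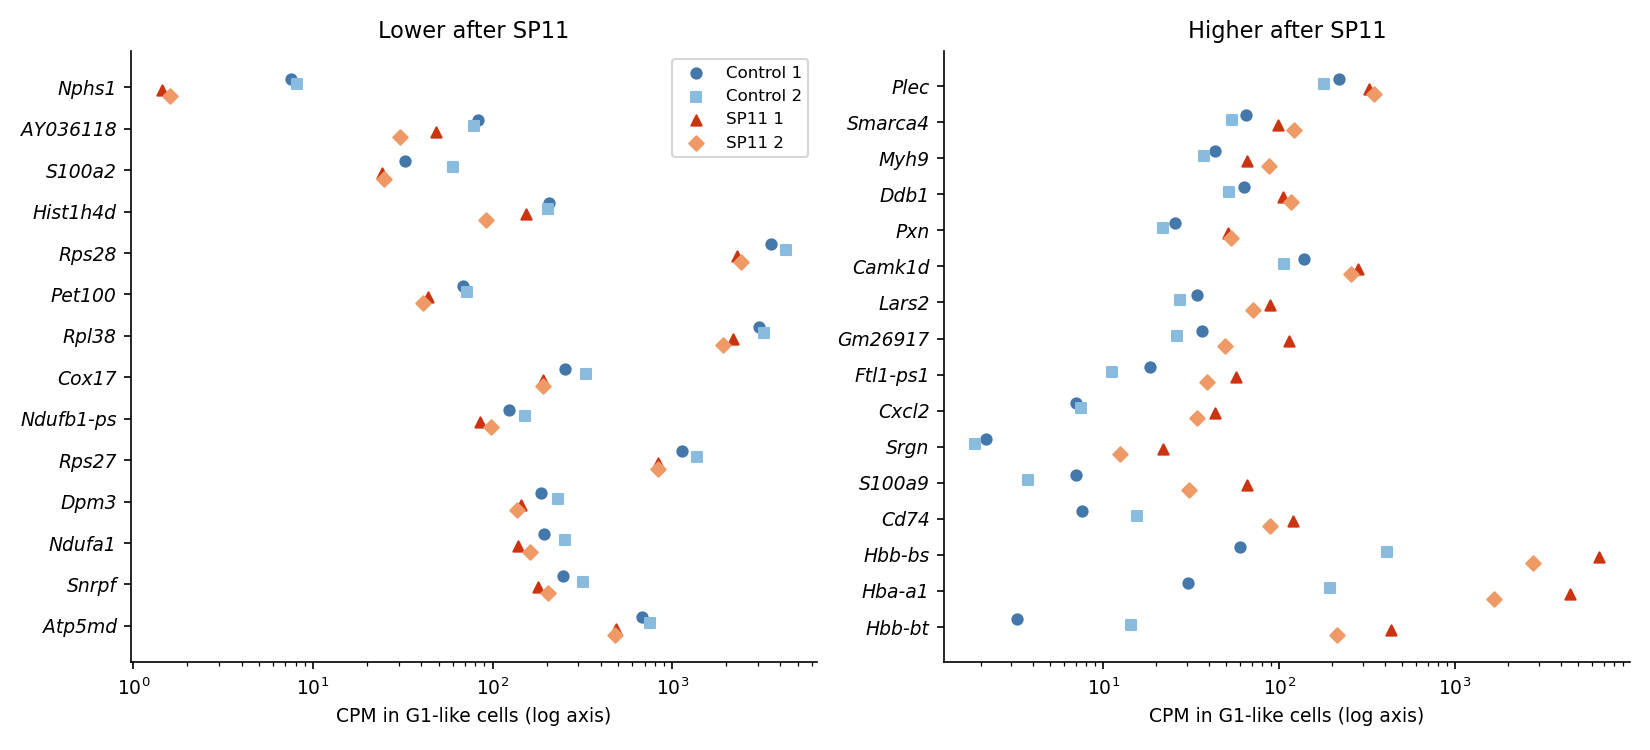
CPM in the G1-like cells (x axis, log scale) of the 14 genes called lower after SP11 (left) and of 16 of the 33 called higher (right), 1 point per library. Both SP11 points lie on one side of both Control points for every gene shown, as they do for 39.4% of all genes tested, and the globins have the widest spread between the Control libraries.

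Many of the genes that rose are known from other cell types. Of the 33, 15 were on the marker lists of B and plasma cells, red cells, macrophages, neutrophils or T and NK cells, and 30 had a higher CPM in keratin-low barcodes (under 5 UMIs of Krt8 and Krt18) than in the G1-like cells of both SP11 libraries, compared with 30.8% of all genes tested. Igkc, the immunoglobulin kappa constant region, had 0, 0, 126 and 110 UMIs in the G1-like cells, at least 59.4-fold higher in SP11 against a floor of 3 UMIs over the Control cells. A count of 0 in 314 Control cells allows a share of up to 0.955% of cells with a UMI. Cd79a, a B-cell receptor subunit, had 0, 1, 65 and 68 UMIs. Its partner Cd79b had 0, 0, 19 and 34 UMIs and Ighm, the IgM heavy chain, 0, 0, 14 and 46. Igkc was found in 0%, 0%, 11.4% and 25.0% of the G1-like cells before thinning. Single cells held much of these counts. The richest cell for Igkc, Cd79a, Cd79b and Ighm held 31, 14, 4 and 4 UMIs in SP11 1. In SP11 2 it held 32, 21, 12 and 19. Il1b, an inflammatory cytokine, had 1, 0, 44 and 36 UMIs, Plek, a signalling protein of blood cells, 1, 0, 25 and 18, and Ripor2 1, 0, 16 and 18. Cd74, the class II invariant chain, was at 7.56, 15.6, 120 and 88.6 CPM. Hbb-bs, a beta-globin, was at 59.9, 412, 6560 and 2770 CPM, with a UMI in 40.4%, 55.2%, 99.3% and 100% of the G1-like cells before thinning. Hba-a1, an alpha-globin, was at 30.2, 194, 4530 and 1660 CPM. The 2 Control and 2 SP11 levels of these genes did not overlap, as in 39.4% of all genes, and the tumour suspensions had been treated with red-cell lysis buffer. The B and plasma cell list had 8 of 11 tested genes called higher, the red-cell list 3 of 5, the macrophage list 2 of 6, the neutrophil list 1 of 3 and the T and NK list 1 of 3 (Ptprc). Over all genes tested, 0.382% were called higher. The 8 included the class II genes Cd74, H2-Aa, H2-Ab1 and H2-Eb1. These were also at 552 to 7380 CPM in SP11 keratin-low barcodes with 10 or more UMIs of the gate's macrophage genes.

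The summed marker levels in the G1-like cells of Control 1, Control 2, SP11 1 and SP11 2 moved with these calls. Red-cell markers summed to 98.3, 678.5, 11670 and 4707 CPM, and B and plasma markers to 49.7, 62.3, 333 and 321 CPM. Macrophage markers summed to 36.2, 71.0, 169 and 92.2 CPM and neutrophil markers to 84.2, 76.6, 207 and 123 CPM. The SP11 libraries also held more keratin-low barcodes, 575 and 509 against 71 and 38 in Control. The part of these other cells in the calls was not tested. Without G1-like cells that carried a B-cell UMI, 14 genes were higher and 4 lower. Of the 33, 23 could still be tested and 14 kept their call, and 3 of the 14 lower genes kept theirs. Igkc, Cd79a, Cd79b and Ighm had no UMIs left there by the choice of cells. Without barcodes shared between libraries 18 were higher and 2 lower, all among the 33 and the 14, of which 30 and 13 could be tested. Rpl38, Rps27 and Cox17 were among those that lost their call both ways, while Rps28, Ddb1, Camk1d, Lars2 and Cxcl2 kept it.

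**Figure D5:**
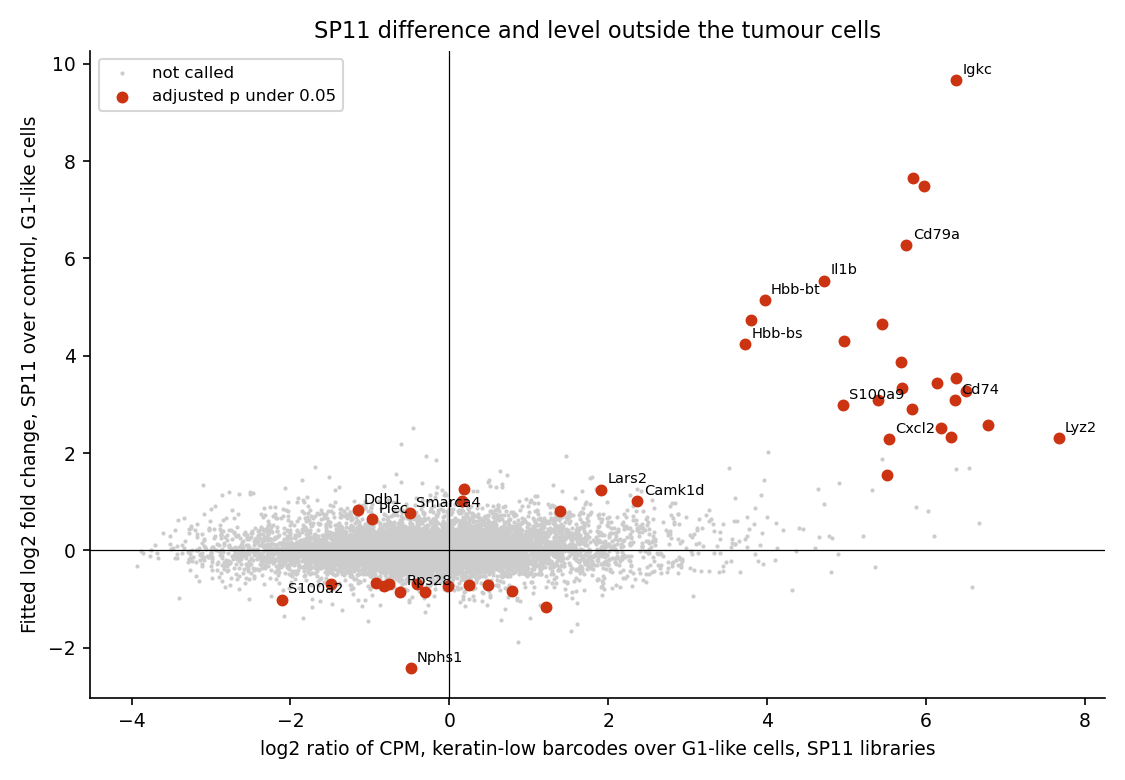
Log2 ratio of CPM in keratin-low barcodes over G1-like cells, averaged over the SP11 libraries (x axis), and fitted log2 fold change of SP11 over Control in G1-like cells (y axis), 1 point per tested gene, called genes in red. Of the 33 genes called higher, 30 lie right of 0, and Plec, Smarca4 and Ddb1 lie left of it.

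The 3 genes that were higher in SP11 and not higher in keratin-low barcodes of both libraries were Plec, Smarca4 and Ddb1, which were chosen for naming after their values were seen. Plec, a cytoskeletal linker, was at 219, 180, 326 and 348 CPM, Smarca4, a chromatin remodelling ATPase, at 64.8, 54.2, 98.9 and 121, and Ddb1, an adaptor of CUL4 ubiquitin ligases, at 63.2, 51.7, 105 and 117. Their log2 fold changes were 0.64 ± 0.15, 0.77 ± 0.17 and 0.83 ± 0.17 (SE, edgeR adjusted p = 0.0453, 0.0317 and 0.0146). DESeq2 called none of the 3 (adjusted p = 0.124, 0.269 and 0.136), and none was called by edgeR without Control 1, without Control 2 or after thinning to 5000 UMIs. Plec and Smarca4 were also not called without shared barcodes (edgeR adjusted p = 0.067 and 0.0793) or without cells that carried a B-cell UMI (both 0.0779), and Smarca4 not without SP11 2 (0.0656). Their longest annotated transcripts had 15455, 6376 and 4459 bases, and 56.0% of all genes tested were over 3000. Ddb1 and Smarca4 were not called in the other tumour cells of the same libraries (edgeR adjusted p = 0.0676 and 0.149), where the effects were 0.48 and 0.44, and Plec was (0.79, edgeR adjusted p = 0.00172). Cxcl2, a neutrophil-attracting chemokine, was at 7.02, 7.48, 43.0 and 34.3 CPM and was higher in keratin-low barcodes too. Camk1d, a calcium-dependent kinase, was at 138, 107, 282 and 255 CPM and Lars2, a mitochondrial leucyl-tRNA synthetase, at 34.0, 27.4, 88.8 and 70.7, both higher in keratin-low barcodes and also named after their values were seen.

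Among the 14 lower genes, Rps28, a small ribosomal subunit protein, was at 3540, 4270, 2290 and 2410 CPM (log2 fold change -0.85 ± 0.17, edgeR adjusted p = 0.00811). Rpl38 and Rps27 were also lower, so 3 of 46 tested ribosomal genes were called, and the list's median was -0.20. Cox17, Ndufa1, Ndufb1-ps, Atp5md and Pet100 were lower, Cox17 at 253, 330, 191 and 191 CPM. Hist1h4d is a histone gene, and the rule set the histone cut of SP11 2 lower than that of the other libraries. The others were Snrpf, Dpm3, S100a2, the non-coding AY036118, and Nphs1, the slit-diaphragm protein nephrin, at 14, 13, 3 and 4 UMIs. Dpm3, Ndufa1, Snrpf and Atp5md fall outside the rule for named genes. The longest annotated transcript had a median of 892 bases in the 14, against 3294 over all tested genes (GENCODE vM21), and 8 of the 14 were under 1000 bases, against 5.95% of all. The part of transcript length or library quality in these calls was not tested.

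Both counts moved when 1 library was left out. Leaving out Control 1, Control 2 or SP11 1 left 15, 13 or 105 genes higher and 5, 0 or 90 lower, and leaving out SP11 2 left 43 and 26. Without Control 2, 148 genes were lower at an unadjusted edgeR p under 0.05. DESeq2 called 15 higher and 8 lower. Of the 47 genes, 8 were called under each of the 17 alternatives in which they were tested and 0 turned sign. The 8 were Cxcl2, Cd74, Cd52, Hbb-bt, Il1b, Cd79a, Cd79b and Igkc, and none of the lower genes was among them. All 8 had a higher CPM in keratin-low barcodes than in the G1-like cells of both SP11 libraries. Igkc, Cd79a and Cd79b were not tested without cells that carried a B-cell UMI.

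A direct test of whether SP11 acted differently in G1-like cells than in the other tumour cells, with each sample as a block, called 0 genes higher (238 with an unadjusted edgeR p under 0.05, and 0 called by DESeq2) and 2 lower (0.0185%) of 10824. Both were globins, Hba-a2 at -2.45 ± 0.28 and Hbb-bs at -0.94 ± 0.20 (log2, SE). In Control 2 a single G1-like cell held 822 of the 1057 globin UMIs (77.8%), and without that cell Hbb-bs turned to 0.71 (edgeR adjusted p = 9.58e-07) and Hba-a2 to -0.28 (edgeR adjusted p = 1.0). Fgfbp1 and Areg had differences of 0.40 ± 0.19 and 0.29 ± 0.11 with adjusted p = 1.0 by edgeR, so no difference was detectable at this depth. In the other tumour cells, edgeR called 138 genes higher (1.24%) and 63 lower (0.567%) of 11117. Both fits use the same samples, and the other tumour cells summed to 7732712 to 9549407 UMIs per library.

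The rule fixes each library at its own medians, so a second measure used one cut for all libraries. For it, tumour-gate cells were thinned to 5000 UMIs and shallower cells were left out. Below both pooled medians lay 189 of 793 cells in Control 1 (23.8%, 95% Clopper-Pearson interval 20.9 to 27.0), 94 of 509 in Control 2 (18.5%, 15.2 to 22.1), 228 of 1090 in SP11 1 (20.9%, 18.5 to 23.5) and 166 of 561 in SP11 2 (29.6%, 25.8 to 33.6). Such intervals reflect counting error alone. The means were 21.2% ± 3.79 in Control and 25.3% ± 6.13 in SP11 (SD, n = 2 each), a difference of 4.1 percentage points (exact permutation test, two-sided, p = 0.667). At this depth only SP11 2 lay above both Control samples, and without it the difference was -0.233. With cells thinned to 3000 UMIs, the shares were 17.5% and 13.3% in Control and 18.4% and 26.4% in SP11, a difference of 7.0 points (exact permutation test, two-sided, p = 0.333). Its thinned histone UMIs had a median of 3 per cell, against 6, 8 and 6 in Control 1, Control 2 and SP11 1, and its mitotic UMIs a median of 4 against 3, 4 and 4.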

How the data were processed

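The deposited files are UMI counts per gene and barcode, made by the authors with Cell Ranger against mm10 per the labels (the study's text names another build, hg38, for the same data). The unit is counts, taken as deposited with no normalisation. The total depth differed between libraries, and the summed UMIs of the G1-like cells lay between 1605057 and 2504718. All rows name a gene. Members and gene lists were chosen with earlier results of these data known.

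UMIs of the member cells were summed per sample, since cells are not replicates, and tested with edgeR 4.0.16 (TMM, filterByExpr, quasi-likelihood test, Benjamini-Hochberg over all genes, threshold 0.05) in R 4.3.3, with DESeq2 1.42.0 as an alternative. The interaction of treatment and class used the sample as a block. The study's own cell-wise test was not used. On simulated data with 200 changed genes, the edgeR fit of SP11 against control in G1-like cells recovered 65.3% of log2 changes of 1 and 98.9% of log2 changes of 2, and 9 of 166 calls were unchanged genes. Doublets were marked with Scrublet in Scanpy 1.11.5 and kept, since under 10 member cells per library were marked and the call in 1 library depended on the random seed. Named genes are the 6 markers, the gene lists, up to 15 leading genes per direction of the class comparison, up to 10 called genes per direction of the SP11 comparison, the genes of the difference test and the 9 genes the study follows. The same replicate numbers occur in both groups but do not say which samples share an animal or day, and the deviations of same-numbered samples correlated at r = 0.0475, so they were not treated as pairs. Alternatives were another normalisation, low-count filters, the replicate block, leaving out libraries, doublets, cells by genes, mitochondrial or keratin limits, thinning, shared barcodes, B-cell UMIs and 1 globin-rich cell.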

Additional observations from a re-analysis of the deposited data

Results flagged for a closer look

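Among the G1-like cells, 2 globin genes differed from the other tumour cells in their SP11 effect by the edgeR test of the difference. Hba-a2 had a difference of -2.45 and Hbb-bs one of -0.94 on the log2 scale. In Control 2, 1 member cell held 77.8% of the globin UMIs of the class (822 of 1057), and the next richest member held 11. Without that cell Hbb-bs had the opposite sign, and Hba-a2 was -0.28 and no longer called.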

How the results depend on the processing

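Among named genes and other single values, 513 were labelled the same under an alternative. That label covers called genes that kept call and direction, and genes called in neither fit whatever their direction. It also covers marker ratios within an SD of the main mean and quality medians of the same sign. Another 80 kept their direction but were no longer called, 10 reversed and 1 moved (the Ung log2 ratio, from 1.18 to 0.82 with a stricter score cut). For SP11 against Control in G1-like cells (33 higher, 14 lower), the counts were 15 and 8 with DESeq2, 71 and 30 without a low-count filter, 16 and 3 with that stricter cut, 12 and 1 after thinning to 5000 UMIs, and 22 were lower without doublets. Chosen after seeing the data, leaving out shared barcodes gave 18 and 2 and leaving out cells with B-cell UMIs 14 and 4. Leaving out 1 library gave 13 to 105 higher and 0 to 90 lower. With the replicate number as a block, 71 were higher and 42 lower, but only the number is known to be shared.

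For the difference between classes (0 higher, 2 lower), leaving out 1 library gave 0 to 4 higher and 0 to 6 lower, and the stricter cut 4 and 0. Added later, leaving out shared barcodes gave 1 and 4 and leaving out the globin-rich cell 2 and 0. DESeq2 and thinning gave 0 lower, and RLE factors, doublets left out and at least 500 genes gave 1 lower each. Over the libraries left out in turn, Hbb-bs ranged from -3.12 to 1.77 and Hba-a2 from -2.87 to 1.17, while the stricter cut gave 1.98 and 1.06 and Hbb-bs was 0.713 without the globin-rich cell. The share below both pooled medians differed by -0.233 to 8.44 points over the libraries left out, median UMIs by -4387 to 5514 (-1953 without Control 1), detected genes by -684 to 998 (-248 without Control 1) and the mitochondrial share by -0.098 to 0.56 points. The cause of these shifts was not tested. With 2 samples a group, no exact permutation test can reach 0.05.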

Other observations

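Further gene groups were set beside the same ratios of G1-like over other tumour cells, again as a description. Over all 8632 genes, 15% were higher and 21.7% lower in 4 of 4 libraries, and the counts below should be read beside these shares. Of 14 tested genes of MHC class I presentation, 7 were higher in 4 of 4 libraries (B2m, H2-D1, Pdia3, Calr, Psmb10, Psme1 and Psme2) and 0 lower. B2m, the light chain of class I, was at 39.4, 56.7, 36.2 and 46.3 CPM against 34, 54.6, 35.8 and 45.3 in Control 1, Control 2, SP11 1 and SP11 2. The classes thus barely differed in B2m in the SP11 libraries, since the same-sign rule sets no size limit. Of 21 NRF2 and thiol genes, 6 were higher and 4 lower. Ftl1, the ferritin light chain, was at 3220, 2300, 3050 and 2980 CPM against 2620, 1810, 2540 and 2350, and Hmox1, which degrades haem, at 31.3, 27.4, 24.1 and 30.3 against 21.5, 16.9, 19.6 and 20.1.

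Of 23 genes of cholesterol and fatty acid synthesis, 0 were higher and 6 lower. Of 29 glycolysis and hypoxia genes, 3 were higher and 8 lower. The list's median log2 ratios were -0.0396, -0.0754, -0.0379 and -0.000793 in Control 1, Control 2, SP11 1 and SP11 2. Hk2, the first enzyme of glycolysis and among the 3 higher, was at 197, 173, 168 and 145 CPM against 143, 142, 128 and 113. Of 19 genes of EGFR-MAPK feedback, 6 were higher and 2 lower, and Lrig1, an inhibitor of EGFR, was at 14, 22.4, 13 and 19.2 CPM against 10.2, 12.3, 9.11 and 12.7. No gene of these 5 lists was called between SP11 and Control in G1-like cells by edgeR or DESeq2. In the order given, 0, 2, 5, 6 and 1 of their genes had an unadjusted edgeR p under 0.05, against 821 of all 8632 genes tested.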
